A study of Mus musculus with 6 samples.

Results

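Annexins and S100 proteins are calcium-dependent proteins of the cell cortex, and their genes were followed here in a mouse macrophage line grown with or without Tsc2-null cells. The members were all protein-coding genes of the deposited count table named Anxa plus a digit, S100a plus a digit, S100b, S100g, S100pbp or S100z. The rule found 29 of 54532 genes, 11 annexins and 18 S100 genes. RNA came from sorted RAW264.7 cells, a macrophage line labelled WT in every library, kept in DMEM with fetal bovine serum. In the lone group (replicates A, B and C) the cells had been grown by themselves, and in the cocultured group (replicates A, B and C) they had spent 48 h with TTJ cells, a Tsc2-null line that was established from an angiomyolipoma of mice that model tuberous sclerosis complex. RAW264.7 and TTJ cells are each 1 line, and no label says whether the replicates were separate cultures, so every p-value here reflects how these 6 libraries vary, and that variation may be technical only. The comparison asks how macrophages differ after 48 h with TTJ cells. No group was cocultured with other cells, so an effect of Tsc2 loss cannot be told apart from one of coculture itself.

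Annexins bind acidic phospholipids, among them phosphatidylserine, when calcium rises, and serve membrane traffic, membrane repair and the binding of dying cells. S100 proteins are small EF-hand proteins that bind calcium and then dock onto partner proteins, several of which are annexins. The classic pair is annexin A2 with S100A10, a surface complex known for binding plasminogen and its activators. Annexin A1 acts outside the cell through formyl peptide receptors and restrains inflammation. S100A8 and S100A9, the calgranulins, are abundant in neutrophils and fresh monocytes and signal through TLR4 and the receptor RAGE.

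The libraries held 14329487 to 17358280 counts each. Values are CPM, counts scaled to the TMM-adjusted library size, unless FPKM, which also divides by gene length, is named, and means carry their SD over n = 3 libraries. A gene was called where the edgeR quasi-likelihood test gave a Benjamini-Hochberg adjusted p under 0.05 over all 12972 genes tested. All 12 macrophage marker genes were measured in both groups, with a summed level of 12136 to 12228 CPM alone and 12776 to 13105 CPM in coculture. Of these 12, 5 were called higher, led by Fcgr1 (log2 1.17) and Itgam (log2 0.89), and 3 lower, namely Tyrobp (log2 -0.30), Spi1 (log2 -0.23) and Cd68 (log2 -0.10). All 12 had at least 1 CPM alone, and over all tested genes at that level 16.8% were called higher and 17.2% lower. Csf1r, at 1928 ± 64.6 and 2016 ± 23.9 CPM, was not called. Lyz2, at 6768 and 7266 CPM, made up the largest portion of the sum and was among the 5 called higher (log2 0.10, edgeR adjusted p = 0.00343). Of 16 renal and simple epithelial markers, 13 had no count in any lone library, and the list summed to at most 0.115 CPM alone against 375 to 431 CPM in coculture. Cdh16 went from 0 to 122 ± 12.2 CPM and Krt8 from 0 to 91.8 ± 8.36 CPM, whereas Epcam was at 0 in all 6 libraries. The 19 mesenchymal and smooth muscle markers summed to 2.07 to 2.68 CPM alone and 60.7 to 65.7 CPM in coculture. Col5a1, Timp3 and Cav1, at 25.6, 17.9 and 15.2 CPM in coculture, made up most of the latter sum. Of the 19 markers 15 were too low to test, with Col1a1 at 3 counts over the 3 cocultured libraries. Acta2, at 0.989 CPM alone and 1.41 CPM in coculture, was not called. Genes with no count alone and at least 10 in coculture numbered 688 and took 0.282% to 0.314% of cocultured counts. The part of such transcripts in the changes below was not tested. In bulk RNA a changed share of cells and a changed amount of RNA per cell cannot be told apart.

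Most annexins that RAW264.7 cells expressed were higher in coculture, and the most abundant of them was lower. Of the 11 annexins 10 could be tested, and 7 were called higher (Anxa1, Anxa2, Anxa3, Anxa4, Anxa6, Anxa7 and Anxa8), 1 lower (Anxa5) and 2 neither (Anxa9 and Anxa11). Of the 18 S100 genes 8 could be tested, and S100a6, S100a10, S100a11 and S100a16 were called higher, 0 lower and 4 neither. Together 11 of 18 tested members were higher and 1 lower, beside 21.7% of all genes tested called higher and 15.2% called lower. Anxa8 and S100a16 had no count alone and entered the test through coculture only, which left them 1 possible direction. Of the 16 members that reached a mean of 1 CPM in lone cells, 9 were higher and 1 lower, beside 16.8% higher and 17.2% lower over the 11458 tested genes with that level. The median log2 change of these 16 was 0.24, against -0.02 over the same 11458 genes. By family, 6 of 9 annexins at that level were higher, with a median of 0.32. Of the S100 genes 3 of 7 were, with a median of 0.04, close to that of all genes. The other 11 members had too few counts for the test.

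**Figure D1:**
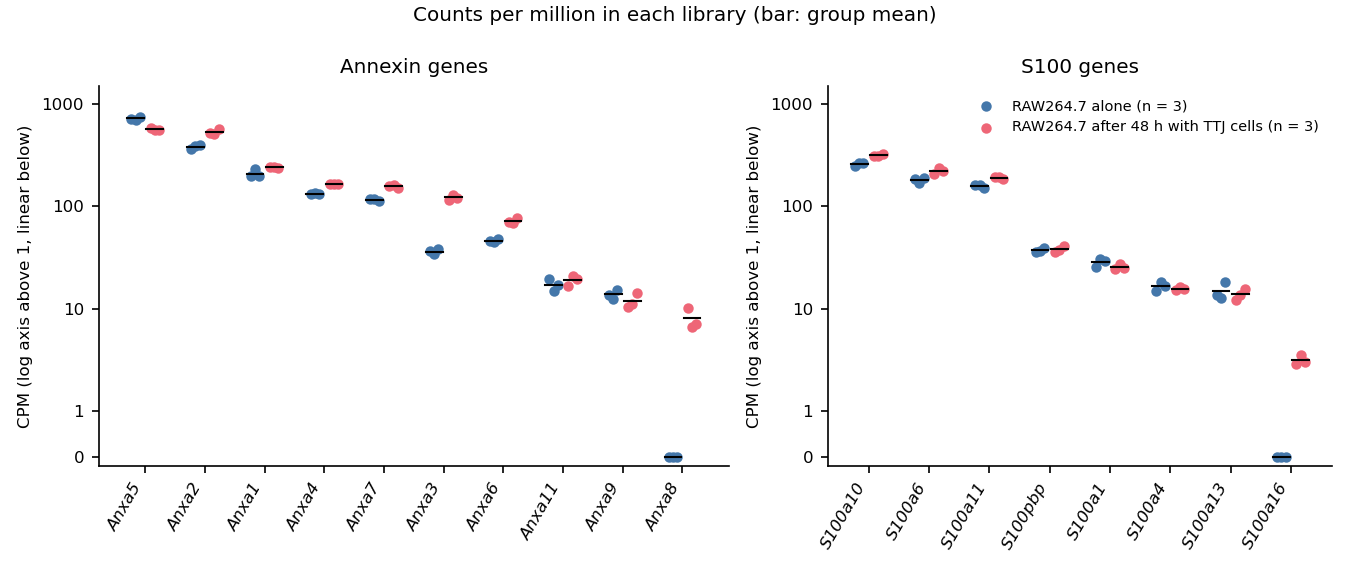
CPM of each tested annexin (left) and S100 gene (right) in each library, blue for RAW264.7 alone and red for coculture, 3 points a group with a bar at the mean, on an axis that is logarithmic above 1 CPM and linear below. Anxa3 separates the groups most among genes present alone, Anxa5 is lower in all 3 cocultured libraries, and Anxa8 and S100a16 are at 0 in lone cells.

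Anxa3 (ENSMUSG00000029484) had the largest change among members present in lone cells. Annexin A3 is a membrane-binding annexin known from phagocyte granules. Its level was 36.4, 34.1 and 38.1 CPM in the lone libraries and 117, 129 and 122 CPM in the cocultured ones. All 3 cocultured values lay far above the lone ones, and the groups did not overlap. The rise was 3.39-fold (log2 1.76, SE 0.0603, edgeR adjusted p = 7.44e-18). Per length, Anxa3 moved from the 7th to the 5th place among annexins, from 9.91 ± 0.563 to 33.6 ± 1.79 FPKM, where it overlapped Anxa4 at 35.7 ± 0.329 FPKM. A gene of uncertain coding status on the same strand, Gm42603, overlaps Anxa3 and held 1 count alone and 9 in coculture.

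Anxa2 (ENSMUSG00000032231), whose protein carries S100A10 to the membrane, had 366, 389 and 396 CPM alone and 517, 510.0 and 570.5 CPM in coculture. Every cocultured library was above every lone one. The rise was 1.39-fold (log2 0.47, SE 0.0450, edgeR adjusted p = 3.44e-09). Anxa6, the large annexin known for organizing cholesterol-rich and cortical membranes, was at 46.0, 44.7 and 48.6 CPM alone and at 70.5, 69.3 and 77.5 CPM in coculture. These groups were also apart, with a rise of 1.56-fold (log2 0.64, SE 0.0635, edgeR adjusted p = 7.23e-09). Anxa7, which encodes synexin, a binding partner of sorcin and ALG-2, was at 118, 118 and 114 CPM alone and 158, 161 and 152 CPM in coculture. Its rise of 1.35-fold (log2 0.43, SE 0.0467, edgeR adjusted p = 3.55e-08) again came without overlap.

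Anxa4 and Anxa1 rose least. Anxa4, known best from epithelial apical membranes, was at 133, 135 and 132 CPM alone and 167, 164 and 166 CPM in coculture, the tightest groups of the family. It rose 1.25-fold (log2 0.32, SE 0.0447, edgeR adjusted p = 2.47e-06). Anxa1 was at 198, 229.9 and 197 CPM alone and 245, 241 and 238 CPM in coculture. Lone replicate B stood above the other lone libraries and below each cocultured one, so the groups were narrowly apart. The rise was 1.16-fold (log2 0.21, SE 0.0516, edgeR adjusted p = 0.00194).

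Anxa5 (ENSMUSG00000027712), the phosphatidylserine-binding annexin used to stain apoptotic cells, was the exception. Its level was 713, 705 and 750.4 CPM alone and 581, 563 and 558 CPM in coculture. The groups were apart in the opposite direction to the other called annexins. It was 1.27-fold lower (log2 -0.35, SE 0.0379, edgeR adjusted p = 3.80e-08). Per length Anxa5 was the most abundant annexin in both groups, at 406 ± 13.8 FPKM alone and 319 ± 6.69 FPKM in coculture. Its share of the summed annexin FPKM was 60.3% ± 1.14 alone and 46.3% ± 1.04 in coculture. The share of Anxa2 was 15.2% ± 0.339 and 20.7% ± 1.14, and that of Anxa3 was 1.47% ± 0.0714 and 4.88% ± 0.298. The summed annexin level itself was 672 ± 14.9 FPKM alone and 688 ± 6.27 FPKM in coculture, so the lower Anxa5 and the higher other members nearly offset each other in the sum.

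**Figure D2:**
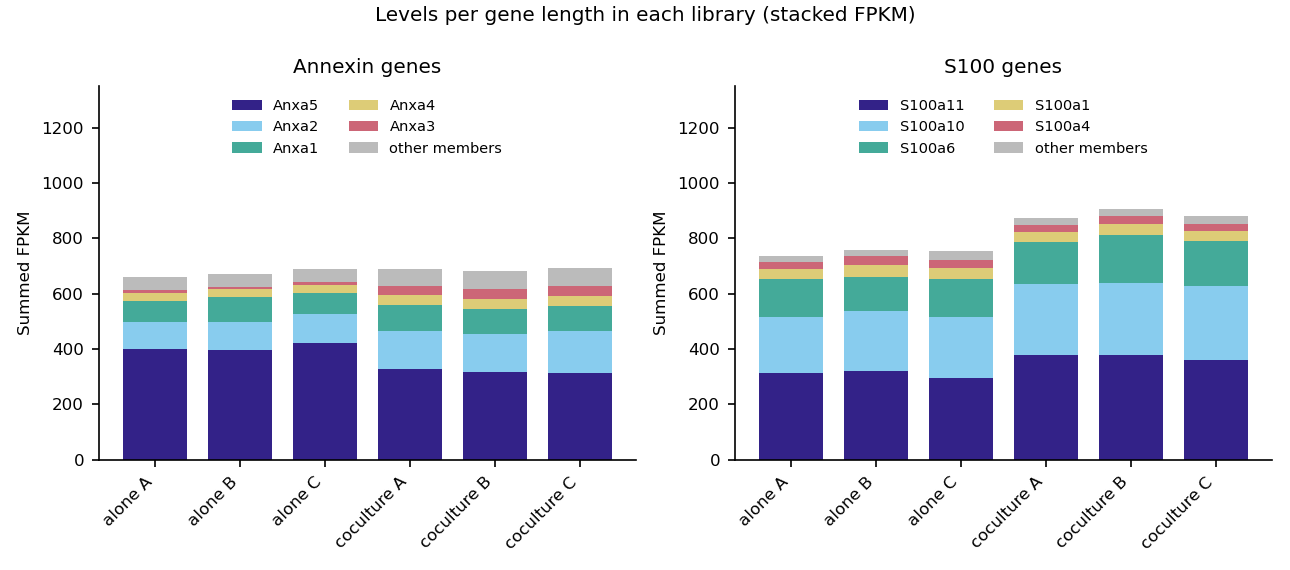
Summed FPKM of annexin genes (left) and S100 genes (right) in each of the 6 libraries, stacked by gene with the 5 most abundant in coculture coloured and the rest in grey. The annexin bars have nearly the same height with a shorter Anxa5 segment in coculture, and the S100 bars are taller in coculture.

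Anxa8, an annexin of epithelia, had 0 counts in each lone library and 147, 105 and 122 counts in coculture, or 10.3, 6.70 and 7.17 CPM. It was at least 129-fold higher, with 3 counts over the lone group as the floor. Its mean of 8.06 ± 1.95 CPM lay below those of the renal and epithelial markers Cdh16 and Krt8, and above that of Emx2 at 3.07 CPM, the lowest called marker of that list. The part of TTJ RNA in the Anxa8 value was not tested. Among annexins, Anxa8 is the only 1 of the 10 tested that was absent from every lone library. Anxa9 and Anxa11 did not pass. Anxa11, which binds ALG-2 and S100A6 and serves granule transport, was at 19.5, 14.9 and 16.9 CPM alone and 16.6, 20.998 and 19.7 CPM in coculture, with overlapping groups (log2 0.17, SE 0.114, edgeR adjusted p = 0.275). Anxa9, at 13.7, 12.6 and 15.3 CPM alone and 10.4, 11.1 and 14.2 CPM in coculture, overlapped as well (log2 -0.21, SE 0.130, edgeR adjusted p = 0.214). Without cocultured replicate C, its highest cocultured library, Anxa9 was called lower (log2 -0.36, adjusted p = 0.0499, within a range of 0.0499 to 0.525 over alternatives). Anxa9 shares its locus with Mindy1 on the other strand, which had 3091 counts alone and 2839 in coculture, and since no source used here states how strand was treated in counting, reads of the pair may mix. Anxa10, a gastric annexin, had no count in any library.

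**Figure D3:**
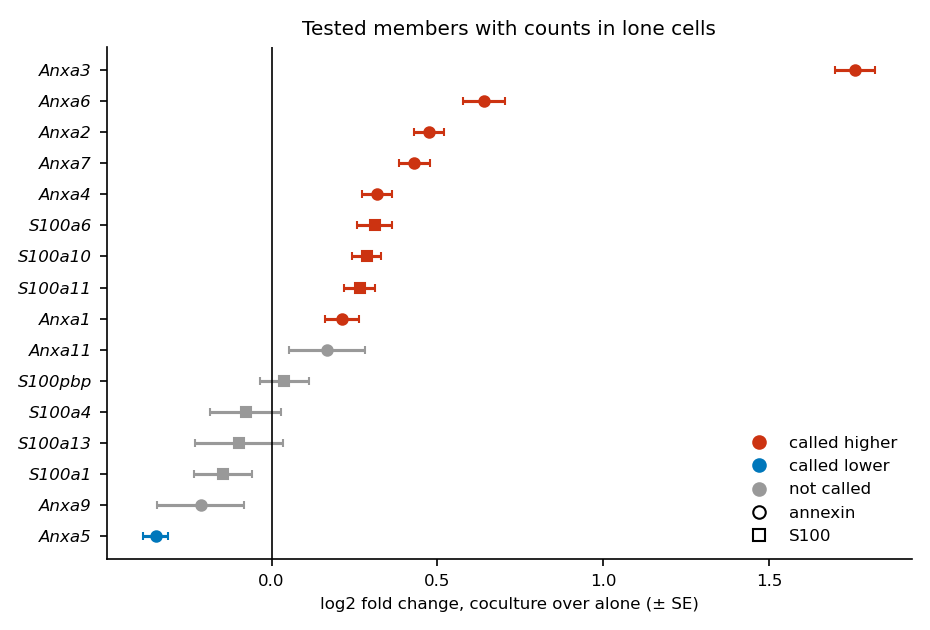
Log2 fold change of coculture over alone with its SE for the 16 tested members that had counts in lone cells, circles for annexins and squares for S100 genes, red where called higher, blue where called lower and grey where not called. Anxa3 stands far right at 1.76, S100a6, S100a10 and S100a11 lie close together near 0.3, and Anxa5 is the only member called lower.

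Among S100 genes the 3 most abundant rose, and whether their changes differ was not tested. S100a10, the annexin A2 partner whose EF-hands have lost calcium binding, was at 246, 266 and 267 CPM alone and 313, 314 and 324 CPM in coculture. The groups did not overlap, and the rise was 1.22-fold (log2 0.29, SE 0.0432, edgeR adjusted p = 6.72e-06). S100a11, a partner of annexin A1, was at 161, 164 and 151 CPM alone and 194, 193 and 185 CPM in coculture. It rose 1.202-fold (log2 0.27, SE 0.0464, edgeR adjusted p = 4.97e-05), also without overlap. S100a6, which encodes calcyclin, was at 184, 169 and 188 CPM alone and 208, 239.7 and 223 CPM in coculture. Its rise was 1.24-fold (log2 0.31, SE 0.0523, edgeR adjusted p = 3.07e-05), and the lowest cocultured library was still above the highest lone one.

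Per length S100a11, S100a10 and S100a6 led the S100 genes in this order in both groups, with 309 ± 12.5, 214 ± 9.36 and 132 ± 7.23 FPKM alone and 372 ± 9.88, 261 ± 4.89 and 163 ± 12.0 FPKM in coculture. Neighbours in this order did not overlap in their libraries. The summed S100 level was 749 ± 10.5 FPKM alone and 887 ± 17.6 FPKM in coculture. Within the sum the share of S100a11 was 41.3% ± 1.85 and 42.0% ± 1.22, that of S100a10 28.5% ± 0.878 and 29.4% ± 0.829, and that of S100a6 17.6% ± 1.10 and 18.4% ± 0.992, differences near or under their SD. The shares of S100a1 and S100a4 were 5.44% ± 0.395 and 3.78% ± 0.319 alone and 4.16% ± 0.194 and 3.03% ± 0.0361 in coculture.

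S100a10 and Anxa2, the genes of the complex, both rose, and their ratio was computed in each library. The FPKM of S100a10 over that of Anxa2 was 2.07, 2.10 and 2.08 in the lone libraries and 1.86, 1.90 and 1.75 in the cocultured ones. The groups were apart, with means of 2.09 ± 0.0166 and 1.84 ± 0.0777. An exact two-sided permutation test gave p = 0.1, the smallest that 3 libraries against 3 can give, so the difference of -0.25 could not pass a 0.05 threshold.

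The remaining expressed S100 genes were not called, and each had overlapping groups. S100a4, the metastasis-associated S100 that binds non-muscle myosin, was at 14.9, 18.1 and 16.8 CPM alone and 15.3, 16.3 and 15.6 CPM in coculture (log2 -0.08, SE 0.108, edgeR adjusted p = 0.620). S100a1, best known from muscle, was at 25.7, 30.5 and 29.0 CPM alone and 24.4, 27.6 and 25.1 CPM in coculture (log2 -0.15, SE 0.0879, edgeR adjusted p = 0.206). Its close neighbour S100a13, which takes part in the release of leaderless growth factors, was at 13.8, 12.7 and 18.1 CPM alone and 12.3, 13.7 and 15.6 CPM in coculture (log2 -0.10, SE 0.133, edgeR adjusted p = 0.612). The sign of S100a13 turned to 0.07 without lone replicate C, its highest library. S100pbp, which encodes a nuclear binding partner of an S100 protein and no S100 protein itself, was at 35.8, 36.9 and 39.5 CPM alone and 35.9, 37.9 and 41.4 CPM in coculture (log2 0.04, SE 0.0745, edgeR adjusted p = 0.729). Its sign turned to -0.01 without cocultured replicate C.

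S100a16, a widely expressed S100 gene of epithelia and fat, had 0 counts in each lone library and 41, 56 and 52 counts in coculture, or 2.87, 3.57 and 3.06 CPM. That is at least 51.4-fold higher against the floor of 3 counts over the lone group. S100a14 and S100a7a, both known from epithelia, were also at 0 alone but too low to test. S100a14 had 6, 5 and 3 counts in coculture, at least 4.83-fold higher, and S100a7a had 13, 10 and 1, at least 8.27-fold higher. Anxa8, S100a14, S100a16 and S100a7a are 4 of the 688 genes absent alone described above, and the part of TTJ RNA in them was not tested.

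The calgranulins were nearly silent. For S100a8 the lone libraries held 6, 2 and 4 counts and the cocultured ones 7, 7 and 8, or 0.254 ± 0.148 and 0.469 ± 0.0217 CPM, and S100a9 had 1 count over all 6 libraries. Neither could be tested. Of 12 neutrophil markers, 10 were too low to test, and Ly6g, Ngp, Cxcr2 and Retnlg had no count in coculture. The other two were expressed: Mmp9 was at 55.8 and 51.5 CPM and was not called, and Csf3r was lower in coculture, at 6.15 and 3.32 CPM (edgeR adjusted p = 0.00207). For S100a3 these were 2, 8 and 5 counts and 6, 2 and 10 counts. S100a2, S100a5, S100g and S100b had 3, 2, 2 and 1 counts in the lone group as a whole, with 0 in coculture, and S100z had 1 count in coculture and 0 alone. S100b and S100g lie within or across the genes Dip2a and Ctps2 on the other strand.

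Of the 18 S100 genes, 14 are on chromosome 3 (mm10), and 12 of these fill 184.7 kb from 90511034 to 90695721, in the order S100a1, S100a13, S100a14, S100a16, S100a3, S100a2, S100a4, S100a5, S100a6, S100a7a, S100a8 and S100a9. S100a6 (90612882 to 90624181), which rose, starts 101.8 kb from the first gene's start, and S100a4 (90603771 to 90606045), which was not called, lies just before it. Between them is S100a5, with 2 counts over all 6 libraries. S100a11 (93520488 to 93526287) and S100a10 (93555080 to 93564643) stand 3.01 and 3.04 Mb from the start of S100a1. The annexins are scattered, with Anxa2 on chromosome 9 (69453620 to 69491795), Anxa3 on chromosome 5 (96793339 to 96845966) and Anxa5 on chromosome 3 (36448923 to 36475894).

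Promoter sequence of RefSeq (GRCm38.p6) was matched by symbol for 24 of the 29 members, as windows of 300 bases from 250 before to 50 after the start site closest to the deposited 5' end. For S100a3 that start site lay 24081 bases from the deposited 5' end, so its window is not at that end, and for S100a7a and Anxa1 it lay 285 and 273 bases away. Anxa3, Anxa6, S100a10, S100a14 and S100a2 had no match. Motifs were searched on both strands as plain letters. The TATA box (TATAAA) was in 7 of the 24 member windows and 13.6% of all 32851 windows, and the GC box (GGGCGG) in 7 of 24 and 35.7%. The CCAAT box was in 5 of 24 and 37.4% of all windows. The AP-1 site (TGANTCA) was in 3 of 24, those of Anxa2, S100a11 and Anxa10, and in 7.81% of all windows. The TEAD site (GGAATG) was in 3 of 24 and 14.7% of all windows. A match is a description of letters and shows no binding.

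The upstream stretches below, 5' to 3', show 3 genes that rose together (Anxa2, S100a11 and S100a6), the member that fell (Anxa5), 1 that was absent alone (S100a16) and the 42 bases that separate the uncalled neighbours S100a13 and S100a1. Each was shortened, where needed, to bases that are in no GENCODE exon and no deposited gene, and capitals mark the motifs, none of which overlap. They lie at chr9:69453433-69453619 (Anxa2, plus strand), chr3:93520246-93520487 (S100a11, plus strand), chr3:90612644-90612881 (S100a6, plus strand), chr3:36475895-36475936 (Anxa5, minus strand), chr3:90537004-90537253 (S100a16, plus strand) and chr3:90514393-90514434 (S100a13, plus strand). The stretch of S100a11 holds 2 AP-1 sites and 3 GC boxes and that of Anxa2 holds 1 of each, whereas S100a6 has 1 CCAAT box, read here as its reverse complement, and Anxa5, S100a16 and S100a13 have none of the motifs.
Anxa2: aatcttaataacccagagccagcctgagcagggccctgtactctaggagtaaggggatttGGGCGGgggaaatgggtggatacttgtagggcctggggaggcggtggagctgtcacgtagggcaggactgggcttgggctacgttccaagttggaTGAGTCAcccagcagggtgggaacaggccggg
S100a11: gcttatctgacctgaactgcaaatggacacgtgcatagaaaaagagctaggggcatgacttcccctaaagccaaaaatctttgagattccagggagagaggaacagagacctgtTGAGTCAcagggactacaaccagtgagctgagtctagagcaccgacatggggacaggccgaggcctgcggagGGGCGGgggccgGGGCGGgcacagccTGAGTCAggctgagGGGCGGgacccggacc
S100a6: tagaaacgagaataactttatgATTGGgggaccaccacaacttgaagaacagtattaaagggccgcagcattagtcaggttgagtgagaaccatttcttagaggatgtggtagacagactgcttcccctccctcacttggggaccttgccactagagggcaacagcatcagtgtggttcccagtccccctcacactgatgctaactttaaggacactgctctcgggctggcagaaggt
Anxa5: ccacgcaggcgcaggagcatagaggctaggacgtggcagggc
S100a16: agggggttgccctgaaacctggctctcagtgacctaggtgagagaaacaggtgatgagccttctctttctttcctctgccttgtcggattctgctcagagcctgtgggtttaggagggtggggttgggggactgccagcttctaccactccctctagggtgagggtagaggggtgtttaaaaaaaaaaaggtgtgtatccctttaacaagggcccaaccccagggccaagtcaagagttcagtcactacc
S100a13: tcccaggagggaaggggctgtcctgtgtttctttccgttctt

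**Figure D4:**
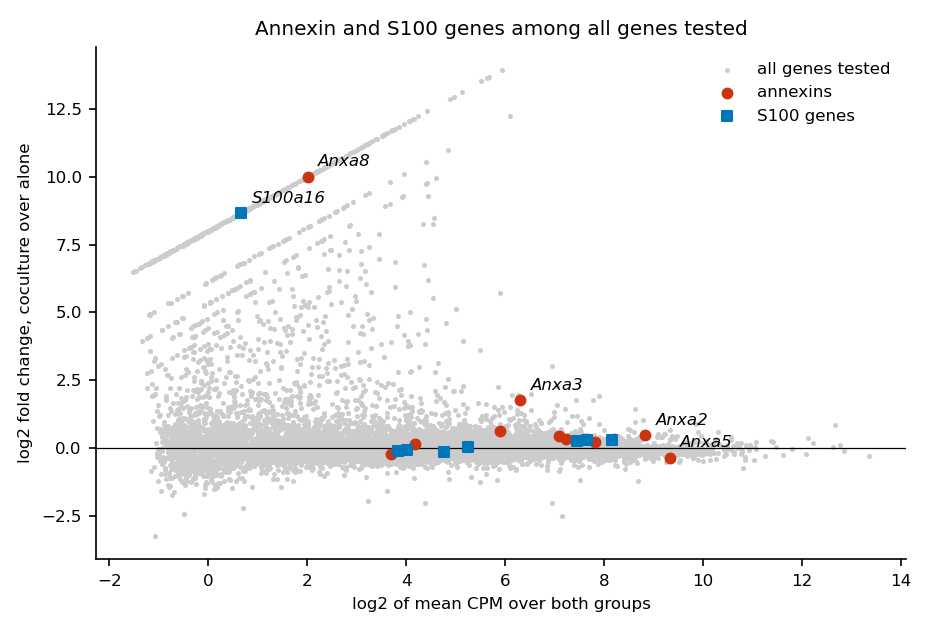
Log2 fold change of coculture over alone against the log2 of mean CPM over both groups for the 12972 genes tested (grey), with annexins as red circles and S100 genes as blue squares. Anxa8 and S100a16 lie on the upper diagonal of genes with no count alone. Anxa3 has the largest change among members with counts alone, while most other members lie near 0.

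Genes of the plasminogen system, which the annexin A2 and S100A10 complex is known to bind, were in part higher in coculture, and 7 of 14 were too low to test. Of the 14 genes on this list 7 were tested, 6 were called higher and 0 lower, with a median log2 change of 1.23, beside the 21.7% of all genes tested that were higher. Of the 6 with at least 1 CPM alone, 5 were higher, beside 16.8% of all genes at that level. Plau, which encodes urokinase, was at 78.6, 79.8 and 78.1 CPM alone and 271, 279.7 and 255 CPM in coculture, without overlap. It rose 3.40-fold (log2 1.77, SE 0.0484, edgeR adjusted p = 8.46e-20). Its receptor gene Plaur rose 2.34-fold, from 29.3 ± 0.611 to 68.6 ± 3.66 CPM (edgeR adjusted p = 8.58e-14). Plat, which encodes tissue plasminogen activator, went from 3, 1 and 4 counts to 71, 69 and 68, a rise of 25.8-fold (edgeR adjusted p = 3.38e-10). At 0.166 ± 0.0923 CPM alone, Plat entered the test through its cocultured counts, so that a rise was its only possible call. Plg, the gene of plasminogen, had no count in any library. Whether these changes differ from those of Anxa2 or S100a10 was not tested.

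Receptors of the secreted proteins moved unevenly. Fpr2, the annexin A1 receptor, went from 1, 1 and 3 counts to 12, 12 and 13 in coculture (log2 2.85, SE 0.616, edgeR adjusted p = 6.01e-04), a value that became 3.46 without lone replicate C. Like Plat, Fpr2 entered the test through coculture, so that it could only be called higher. Fpr1 was too low to test, with 0 counts alone and 1, 3 and 4 in coculture. Of 21 genes for S100 receptors and partners 17 were tested, 6 were higher and 1, Trp53, lower (log2 -0.21, edgeR adjusted p = 5.06e-04), beside 21.7% and 15.2% of all genes tested. Among the 16 with at least 1 CPM alone the counts were also 6 and 1, beside 16.8% and 17.2%. Cd36, a scavenger receptor that binds the S100A8 and S100A9 pair, rose 2.50-fold from 72.4 ± 5.53 to 181 ± 8.59 CPM (edgeR adjusted p = 4.94e-16). Bsg, which encodes basigin, rose 1.17-fold to 376 ± 19.3 CPM, Lgals3, which encodes galectin 3, 1.23-fold to 715 ± 9.87 CPM, and Myh9, the myosin heavy chain bound by S100A4, 1.18-fold to 994 ± 21.7 CPM. Tlr4 was at 91.4, 99.4 and 114 CPM alone and 94.1, 96.3 and 103 CPM in coculture (log2 -0.06, SE 0.0628, edgeR adjusted p = 0.533), with a sign that turned to 0.03 without lone replicate C. Ager, the gene of RAGE, was low, at 0.949 ± 0.476 and 0.484 ± 0.119 CPM (log2 -0.96, SE 0.462, edgeR adjusted p = 0.108).

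**Figure D5:**
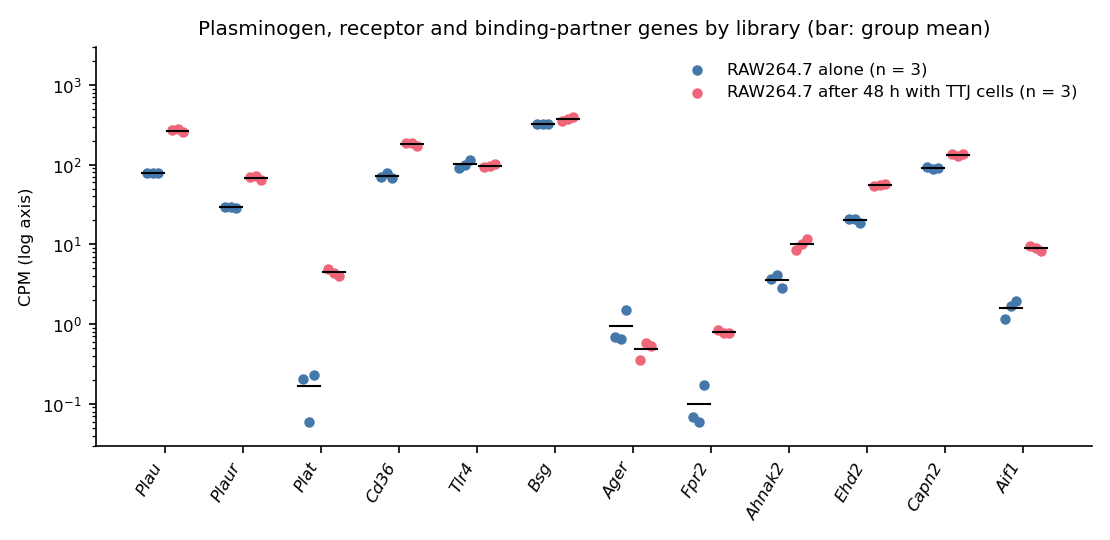
CPM on a logarithmic axis in each library for genes of the plasminogen system, receptors and binding partners, blue for RAW264.7 alone and red for coculture, with a bar at the mean of 3 libraries. Plau, Plaur, Plat and Cd36 are apart between the groups and were called higher. The groups of Tlr4 overlap and those of Ager, a gene with few counts, are apart, but neither gene was called.

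Of 20 annexin receptors and partners 17 were tested, and 8 were higher, beside 21.7% of all genes tested. The 2 called lower were Grb2 and Lpxn (log2 -0.16 and -0.15, edgeR adjusted p = 0.00409 and 0.0189), beside 15.2% of all genes tested. Among the 14 with at least 1 CPM alone 5 were higher and 2 lower, where 16.8% and 17.2% of all genes at that level were. The share called lower is near that of all genes. Leaving out lone replicate A or C, or cocultured replicate A or C, left 1 of the 2 lower calls. Ahnak2, a giant scaffold related to the Ahnak protein that annexin A2 and S100A10 bind, rose 2.86-fold from 3.56 ± 0.613 to 10.1 ± 1.48 CPM (edgeR adjusted p = 1.08e-07). Gca, which encodes grancalcin, rose 1.64-fold to 14.9 ± 0.761 CPM (edgeR adjusted p = 1.41e-04). Of 21 membrane repair and ESCRT-III genes 19 were tested, 10 were higher and 0 lower, beside 21.7% and 15.2% of all genes tested. Dysf, Myof and Ahnak, all called higher, are on this list and on that of annexin partners, so the counts of these lists are not independent. Of the 15 with at least 1 CPM alone, 7 were higher and 0 lower, beside 16.8% and 17.2%. Ehd2, a membrane-remodelling ATPase of caveolae, rose 2.77-fold from 20.03 ± 1.14 to 55.3 ± 1.46 CPM (edgeR adjusted p = 1.63e-14), and the calpain genes Capn1 and Capn2 rose 1.49-fold and 1.47-fold, to 38.1 ± 1.53 and 134 ± 4.78 CPM. Dysf, the repair protein dysferlin, had 1 count in lone cells against 233, which is a scaled ratio of 241 (exact 95% interval 42.8 to 9558). Cav1 and Hspb1 also had 1 count alone, against 712 and 151, with ratios of 736 (132 to 29126) and 156 (27.6 to 6209), and Cavin1 had 3 against 2028, a ratio of 699 (239 to 3393). These intervals cover counting error only. All of Dysf, Cav1, Hspb1 and Cavin1 could be tested because of their cocultured counts, and the part of TTJ RNA in them was not tested.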

How the data were processed

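The authors deposited raw counts per gene and FPKM values for the same 6 libraries, per the file headers, with gene names, biotypes and coordinates. The submitters' processing notes name the build mm10 and, without roles, edgeR 3.22.5, DESeq2 1.20.0, the counter featureCounts 1.5.0-p3 and the aligner HISAT2 2.0.5. Messenger RNA was selected with poly-T beads, per the labels' protocols. All 29 members had identical coordinates in GENCODE M21 (GRCm38). Columns of other samples numbered 0.

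Counts were tested in edgeR 4.0.16 (R 4.3.3, limma 3.58.1) by its quasi-likelihood method, with TMM scaling and filterByExpr by group, Benjamini-Hochberg adjustment over 12972 genes and a threshold of 0.05. SE is the absolute log2 change over the square root of F. Levels between genes were compared by the deposited FPKM. Within a group, library pairs differed by more than sampling noise (chi-square per degree of freedom 3.10 to 4.82). The procedure was tested on simulated data. These gave every gene the same degree of replicate variation and changed only well-counted genes, so genes with few or no counts alone were not covered.

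The members, lists and motifs were chosen with earlier results of these data known. Members were all accounted for. From the receptor and partner, plasminogen, membrane repair and EF-hand lists, up to 4 called genes were named by size of change, given 1 CPM or more in the higher group, with Fpr1, Fpr2, Ager, Tlr4, Plg, Plat, Plau and Plaur in any case. The defining markers Adgre1, Csf1r, Cdh16, Krt8, Epcam, Col1a1, Acta2, Mpo and Ly6g were examined. Emx2, Fcgr1, Itgam, Tyrobp, Spi1, Cd68, Lyz2, Mmp9, Csf3r, Ngp, Cxcr2, Retnlg, Col5a1, Timp3, Myof, Ahnak, Trp53, Grb2, Lpxn, Mindy1 and Gm42603 were named after their values were seen, as were other overlapping genes. Protein sequence was not used here, and some items that the rule names are not reported here.

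Alternatives were DESeq2 size factors, upper quartile scaling, dropping the filter, a minimum of 1 CPM in 3 libraries or on average alone, the DESeq2 1.42.0 Wald test, limma-voom, limma with a trend on log2(FPKM + 1) and log2(FPKM + 0.1), a mean FPKM of at least 1, the replicate letter as a block, and each library left out in turn.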

Additional observations from a re-analysis of the deposited data

How the results depend on the processing

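Under all 17 alternatives Anxa1, Anxa2, Anxa3, Anxa4, Anxa6, Anxa7, S100a6, S100a10 and S100a11 were called higher and Anxa5 lower. Members called higher numbered 9 to 13: Anxa8 and S100a16 were not tested with at least 1 CPM alone, S100a16 was also untested with a mean FPKM of at least 1, and S100a7a, with S100a14 where no filter was used, entered under looser filters. Members called lower numbered 1 to 2 when each library was left out, the second being Anxa9 without cocultured replicate C. Over all genes, 1707 were called higher with a mean FPKM of at least 1, where fewer genes (10986) were tested. With 1 library left out, uncalled log2 changes ranged from -0.01476 to 0.08222 for S100pbp, from -0.2073 to 0.07378 for S100a13 and from -0.1215 to 0.03437 for Tlr4; the cause was not tested. The replicate letter as a block gave 11 members higher and 1 lower, and 2815 genes higher and 1951 lower. For the S100a10 to Anxa2 ratio a paired exact permutation test gave p = 0.25, the smallest that 3 pairs can give. The letters were not taken to pair the samples, since no label says that they do. The deviations of same-lettered libraries correlated at 0.0058 to 0.0448, and 5 of 6 libraries correlated best with their own letter. Members under 1 CPM in both groups were too low for the main test. S100a7a was also called higher with lone replicate A, B or C, or cocultured replicate C, left out.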

Other observations

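Of 30 EF-hand genes outside the S100 family 28 were tested, 8 were higher and 1, Chp1, lower (log2 -0.15, edgeR adjusted p = 0.0147), with a median log2 change of 0.05. These counts stand beside 21.7% of all genes tested called higher and 15.2% called lower, and the share higher on the list is near the first. Among the 27 with at least 1 CPM alone the counts were also 8 and 1, beside 16.8% and 17.2% of all genes at that level. Whether the shares differ was not tested. Chp1 was named after its values were seen. Capn1, Capn2 and Gca, all called higher, were also counted on the lists above. The largest change was that of Aif1, which encodes the macrophage EF-hand protein IBA1. Aif1 was at 1.17, 1.68 and 1.96 CPM alone and 9.52, 9.13 and 8.35 CPM in coculture, a rise of 5.52-fold (log2 2.47, SE 0.205, edgeR adjusted p = 3.06e-10) without overlap of the groups. The count of higher genes on this list fell to 5 without lone replicate B or cocultured replicate A. That of lower genes was 0 without lone replicate B or cocultured replicate C and 3 without lone replicate C.

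Rows with related names that are not protein-coding in the table were Anxa11os, with 1 count alone and 2 in coculture, and Anxa13 and S100a11-ps, with 0 counts in every library.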
